A study of Homo sapiens with 6 samples.

Results

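Histone genes encode the proteins on which nuclear DNA is wound. The genes examined here are those whose symbol begins with H1-, H2AC, H2AZ, H2AJ, H2AX, H2BC, H3-, H3C, H4C or MACROH2A, which gave 54 histone genes of the 19775 genes measured with a probe set of their own. Of these, 43 are clustered histone genes (40 of them on chromosome 6) and 11 are variant histone genes. A further 4 symbols with the same beginnings are an antisense RNA (H1-10-AS1) or pseudogenes and were counted apart. H2BC12L counts among the 43 by its symbol, although it lies on chromosome 21.

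Clustered histone genes supply the bulk of H1, H2A, H2B, H3 and H4 protein during DNA replication, and most of their mRNAs end in a stem-loop and carry no poly(A) tail. Variant histone genes mostly lie elsewhere in the genome and are as a rule transcribed throughout the cell cycle into polyadenylated mRNA. They give nucleosomes special roles in DNA repair, gene control and centromere identity. Labelling by 3' in vitro transcription starts from poly(A) tails, so a clustered histone gene gives a signal on such an array mainly where part of its transcripts are polyadenylated. Polyadenylated transcripts of some clustered genes are known from differentiating and non-dividing cells.

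RNA came from MDA-MB-231, an invasive triple-negative breast cancer line. The shATAD3A group is 3 arrays of cells stably carrying a pLKO.1 lentiviral hairpin vector against ATAD3A, a mitochondrial inner membrane ATPase, and the shGFP group is 3 arrays of cells carrying the same vector with a hairpin against GFP. All cells of both groups were selected in puromycin at 1 µg/ml for 2 weeks and used at passage 2. The question is how transcript levels in knockdown cells differ from those in control cells. The labels do not say how many hairpins or clones were used, nor whether the arrays of a group come from different cultures. The p-values therefore measure the spread among these arrays alone, which could be technical, and the effect of the hairpin cannot be told apart from the cell population that carries it.

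All values are log2 expression values as deposited, a change is shATAD3A minus shGFP, and a gene is called when its limma adjusted p is under 0.05 over all 19775 genes. Values fall into a low mode, which holds little signal, and a broad upper range, and 4.70 was taken as the boundary between them for a gene's mean over the 6 arrays. ATAD3A read 7.41, 7.03 and 7.39 on the shATAD3A arrays, against 7.73, 7.78 and 7.80 on the shGFP arrays, a change of -0.49 ± 0.105 (SE; limma adjusted p = 0.0129). On the linear scale this is 29.0% lower, and the gene was not called at an adjusted p of 0.01. Its probe set is of the x_at type, whose probes may hybridise to related transcripts. Without s_at and x_at probe sets ATAD3A was not measured. All 8 markers of the line were above the low mode in both groups, and among them KRT18 rose by 1.00, 5 fell (CD44, AXL, MSN, CAV1 and LGALS1, by 0.20 to 0.45 on the log2 scale) and 2 were not called by limma. The 2 hormone receptors ESR1 and PGR were within the low mode, neither of them called. All 5 leukocyte markers lay in it too, with means of 2.15 to 3.20 in shATAD3A cells and 2.21 to 3.995 in shGFP cells; CD14 changed by -1.60 (limma adjusted p = 0.000596). Of 5 fibroblast markers COL1A1 alone was above it and averaged 9.35 in shATAD3A cells and 8.35 in shGFP cells (limma adjusted p = 0.000116), and LUM, in the low mode, rose by 0.55 (limma adjusted p = 0.037). The part of these shifts in the histone values was not tested. Of all genes 33.6% were called.

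Promoters of 7 clustered genes that were called lower are shown first, because histone genes of a type share short promoter motifs. The sequences are the 120 bases before the RefSeq start site (GRCh38.p14), 5′ to 3′ along the gene, and capitals mark CCAAT, the octamer ATTTGCAT or TATAAA on either strand, with no overlap between them in these stretches. The 3 H2B genes shown carry the octamer, to which OCT-1 (POU2F1) is known to bind in H2B promoters. H2BC12 is at chr6:27146859-27146978, minus strand; H2BC9 at chr6:26251494-26251613, plus strand; H2BC21 at chr1:149886683-149886802, minus strand.
H2BC12: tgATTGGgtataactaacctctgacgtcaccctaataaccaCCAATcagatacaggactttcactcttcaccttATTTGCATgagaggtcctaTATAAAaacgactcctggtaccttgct
H2BC9: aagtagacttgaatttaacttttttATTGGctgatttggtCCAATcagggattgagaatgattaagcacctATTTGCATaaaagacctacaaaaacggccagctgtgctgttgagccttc
H2BC21: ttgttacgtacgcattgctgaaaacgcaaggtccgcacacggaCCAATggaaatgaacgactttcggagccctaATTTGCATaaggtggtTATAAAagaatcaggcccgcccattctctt

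One called gene each of the H1, H2A, H3 and H4 types is shown for contrast, since none of these stretches holds the octamer. In H2AC6 the octamer lies outside the printed stretch but within the longer window described next. The called genes H1-4 and H2BC6 have a window too and are not printed; H2BC6 holds the octamer and H1-4 does not. H1-2 is at chr6:26056471-26056590, minus strand, H2AC6 at chr6:26124052-26124171, plus strand, H3C2 at chr6:26032100-26032219, minus strand and H4C8 at chr6:26285535-26285654, minus strand. None of the 3 motifs is in the H4C8 stretch.
H1-2: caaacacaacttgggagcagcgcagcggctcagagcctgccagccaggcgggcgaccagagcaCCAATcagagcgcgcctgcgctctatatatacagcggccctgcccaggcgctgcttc
H2AC6: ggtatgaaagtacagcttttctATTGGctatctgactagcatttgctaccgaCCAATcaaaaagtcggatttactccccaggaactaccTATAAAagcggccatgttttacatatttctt
H3C2: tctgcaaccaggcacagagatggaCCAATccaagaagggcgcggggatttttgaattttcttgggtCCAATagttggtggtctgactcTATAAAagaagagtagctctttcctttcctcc
H4C8: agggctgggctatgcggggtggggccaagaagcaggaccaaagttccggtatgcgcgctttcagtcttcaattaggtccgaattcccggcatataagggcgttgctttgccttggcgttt

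The variant genes with the largest changes are H2AJ (chr12:14774285-14774404, plus strand), H2AX (chr11:119095466-119095585, minus strand) and H2AZ2 (chr7:44848088-44848207, minus strand). They too hold no octamer here, and all hold CCAAT on one or the other strand.
H2AJ: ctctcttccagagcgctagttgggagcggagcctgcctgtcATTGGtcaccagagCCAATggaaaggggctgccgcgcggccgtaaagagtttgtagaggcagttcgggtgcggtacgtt
H2AX: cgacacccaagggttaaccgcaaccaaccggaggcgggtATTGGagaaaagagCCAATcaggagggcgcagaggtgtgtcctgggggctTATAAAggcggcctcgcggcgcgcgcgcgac
H2AZ2: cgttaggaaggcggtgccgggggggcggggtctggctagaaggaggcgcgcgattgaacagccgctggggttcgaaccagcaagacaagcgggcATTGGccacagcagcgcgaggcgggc

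Over the whole RefSeq promoter window of 300 bases (250 before the start and 50 after), searched on both strands, 16 of 40 clustered genes with a window held the octamer ATTTGCAT, against 2.19% of all 27305 genes with one. These 16 were 10 of 13 H2B and 6 of 8 H2A genes, and no H1, H3, H4 or variant gene held it. CCAAT stood in 35 of the 40 clustered and 9 of 11 variant genes, against 39.7% of all genes, and TATAAA in 27 of 40 and 4 of 11, against 14%. Among clustered genes called lower, 5 of 9 with a window held the octamer, against 11 of 31 that were not called. A match only describes these letters.

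Clustered histone genes that gave a signal were mostly lower in shATAD3A cells. Of the 43, 10 fell, 0 rose and 33 were not called by limma; 13.9% of all genes fell and 19.7% rose. At an unadjusted limma p under 0.05 the counts were 11 lower and 0 higher, against 3220 lower and 4520 higher among all 19775 genes. The 10 came from every class of histone: H1-2 and H1-4, H2AC6, H2BC6, H2BC9, H2BC12, H2BC12L and H2BC21, H3C2, and H4C8. Among the 43, the groups did not overlap for these 10 alone. Over all genes they did not overlap for 42.0%. The median change over the 43 was -0.05, against -0.00084 over all genes.

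**Figure D1:**
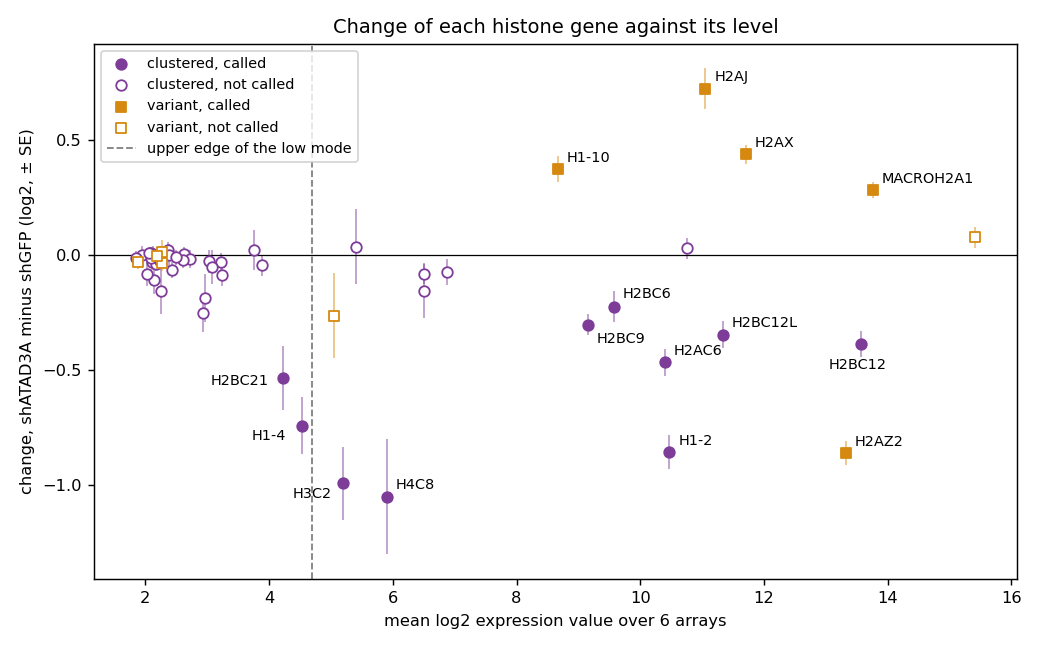
Change of each of the 54 histone genes (shATAD3A minus shGFP, log2, bars are SE of the limma fit) against its mean log2 value over 6 arrays; circles are clustered and squares variant genes, filled where called, and the dashed line at 4.70 is the upper edge of the low mode. The clustered genes called all lie below 0, while 4 of the 5 variant genes called lie above it.

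Most clustered genes gave little signal. Of the 43, 30 had a mean in the low mode, where changes ran from -0.74 to 0.02, and 2 of these 30, H1-4 and H2BC21, were called. Of the 13 above it 8 were called, all lower; among all genes above the low mode 25.4% fell and 36.4% rose. The 5 that were above it and not called were H2AC14, H2AC17, H2BC4, H2BC5 and H4C11, with changes between -0.16 and 0.04. The 4 antisense and pseudogene symbols were all in the low mode, with 0 called and 0 at an unadjusted p under 0.05.

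Among linker histones, which bind the DNA between nucleosomes, H1-2 (histone H1.2) had the clearest difference. It read 9.91, 10.08 and 10.13 in shATAD3A cells, against 10.99, 10.81 and 10.90 in shGFP cells. Every shATAD3A array lay well under every shGFP array, and the change was -0.86 ± 0.0744 (SE; limma adjusted p = 0.000281). On the linear scale this is 44.8% lower. H1-4 (histone H1.4) read 3.98, 4.08 and 4.45 in shATAD3A cells, against 4.96, 4.89 and 4.87 in shGFP cells, a change of -0.74 ± 0.122 (SE; limma adjusted p = 0.00424). Its shATAD3A arrays were all within the low mode and its shGFP arrays just above it, so the size of this change is imprecise. H1-1, H1-3, H1-5 and the testis gene H1-6 stayed in the low mode in both groups and were not called.

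H2AC6 was the only clustered H2A gene called. It read 10.15, 10.06 and 10.27 in shATAD3A cells, against 10.61, 10.59 and 10.68 in shGFP cells, a change of -0.47 ± 0.0595 (SE; limma adjusted p = 0.00141). H2AC14 averaged 6.46 ± 0.077 in shATAD3A cells and 6.55 ± 0.029 in shGFP cells (SD, n = 3 each; limma adjusted p = 0.266), and H2AC17 averaged 5.43 ± 0.28 in shATAD3A cells and 5.39 ± 0.19 in shGFP cells (SD, n = 3 each; limma adjusted p = 0.946). The groups overlapped for both genes. Probe sets shared by H2AC18 and H2AC19, near-identical copies, also fell: the brightest averaged 10.8 in shATAD3A cells and 11.2 in shGFP cells, a change of -0.46 ± 0.0689 (SE; limma adjusted p = 0.00524 over all probe sets), and another changed by -0.42 (adjusted p = 0.000464).

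H2B, the largest class of clustered genes, gave the most calls, with 5 of 14 lower. H1 gave 2 of 6, and of all genes 13.9% fell. H2BC12 read 13.28, 13.38 and 13.48 in shATAD3A cells, against 13.79, 13.72 and 13.80 in shGFP cells, a change of -0.39 ± 0.0565 (SE; limma adjusted p = 0.00253). H2BC12L read 11.05, 11.21 and 11.23 in shATAD3A cells, against 11.56, 11.45 and 11.51 in shGFP cells, a change of -0.35 ± 0.0578 (SE; limma adjusted p = 0.0045). H2BC9 read 8.97, 8.97 and 9.05 in shATAD3A cells, against 9.23, 9.37 and 9.30 in shGFP cells, a change of -0.30 ± 0.0473 (SE; limma adjusted p = 0.00339). For all 3 genes the shATAD3A arrays lay below the shGFP arrays, by less than the change of H1-2.

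The other H2B calls were less firm. H2BC6 read 9.31, 9.51 and 9.56 in shATAD3A cells, against 9.68, 9.69 and 9.70 in shGFP cells, a change of -0.23 ± 0.0679 (SE; limma adjusted p = 0.048), and the call was lost without shATAD3A replicate 2 (adjusted p = 0.0719) and without shGFP replicate 1, 2 or 3 (adjusted p = 0.111, 0.118 and 0.126). H2BC21 read 4.05, 4.09 and 3.72 in shATAD3A cells, against 4.39, 4.73 and 4.35 in shGFP cells, a change of -0.54 ± 0.14 (SE; limma adjusted p = 0.0288), with a mean in the low mode. Its call was lost without shATAD3A replicate 1 or 3 (adjusted p = 0.052 and 0.0661) and without shGFP replicate 1 or 2 (adjusted p = 0.0532 and 0.0589). The groups of both genes did not overlap.

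Not every bright H2B probe set passed the test. H2BC5 read 10.68, 10.82 and 10.80 in shATAD3A cells, against 10.77, 10.71 and 10.72 in shGFP cells, and the groups overlapped (change 0.03 ± 0.0467, SE; limma adjusted p = 0.803). Its other probe set gave -0.21 ± 0.0358 (SE; limma adjusted p = 0.00885 over all probe sets), so the probe sets of H2BC5 disagree. H2BC4 averaged 6.42 ± 0.22 in shATAD3A cells and 6.58 ± 0.11 in shGFP cells (SD, n = 3 each; limma adjusted p = 0.44). Of 3 probe sets shared by 5 H2B genes (H2BC4, H2BC6, H2BC7, H2BC8 and H2BC10), 1 fell, with -0.34 ± 0.0575 (SE; limma adjusted p = 0.00807), and the others gave -0.15 and -0.09 (adjusted p = 0.149 and 0.796).

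The H2B coding sequences are close to one another, and the probe sets of H2BC5, H2BC6, H2BC9 and H2BC12L are of the x_at type, whose probes may hybridise to related transcripts. These genes therefore may share a signal, and their calls are not independent. With all s_at and x_at probe sets set aside, 33 clustered genes remained measured and 4 fell: H1-2, H1-4, H2BC12 and H4C8.

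H3C2 and H4C8 had the largest drops among clustered genes. H3C2, an H3.1 gene, read 4.71, 4.36 and 5.01 in shATAD3A cells, against 5.61, 5.68 and 5.77 in shGFP cells, a change of -0.99 ± 0.159 (SE; limma adjusted p = 0.00377). H4C8 read 5.36, 5.88 and 4.89 in shATAD3A cells, against 6.32, 6.33 and 6.65 in shGFP cells, a change of -1.05 ± 0.251 (SE; limma adjusted p = 0.0204). The shATAD3A arrays were the more scattered ones for both genes, yet lay below every shGFP array. Both genes were dim in shATAD3A cells, where H3C2 averaged 4.69, at the low mode boundary of 4.70. The size of these drops is therefore imprecise. The H3C2 probe set is of the s_at type. Another H4C8 probe set changed by -0.82 ± 0.192 (SE; limma adjusted p = 0.0291 over all probe sets). The H4C8 call was lost without shATAD3A replicate 1 (adjusted p = 0.0606) and without shGFP replicate 3 (adjusted p = 0.0677).

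The brightest H4 signal that many copies share did not follow H4C8. The brightest probe set that carries the symbols of 14 H4 genes averaged 14.1 in both groups (change 0.08 ± 0.0356, SE; limma adjusted p = 0.237), and H4C11 averaged 6.84 ± 0.062 in shATAD3A cells and 6.91 ± 0.088 in shGFP cells (SD, n = 3 each; limma adjusted p = 0.448). Another probe set with the same 14 symbols averaged 7.15 in shATAD3A cells and 7.29 in shGFP cells, and the groups did not overlap. Its change was -0.14 and was not called (limma adjusted p = 0.117 over all probe sets). Which H4 copies the shared probe sets read cannot be told apart. Of all 28 probe sets with several symbols, clustered and variant genes together, 16 were above the low mode, 3 rose and 5 fell. Of all probe sets 12.0% rose and 10.5% fell. The 3 that rose all carry the symbols of the variant genes H3-3A and H3-3B. No probe set shared by clustered genes rose, while those that fell include both kinds.

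**Figure D2:**
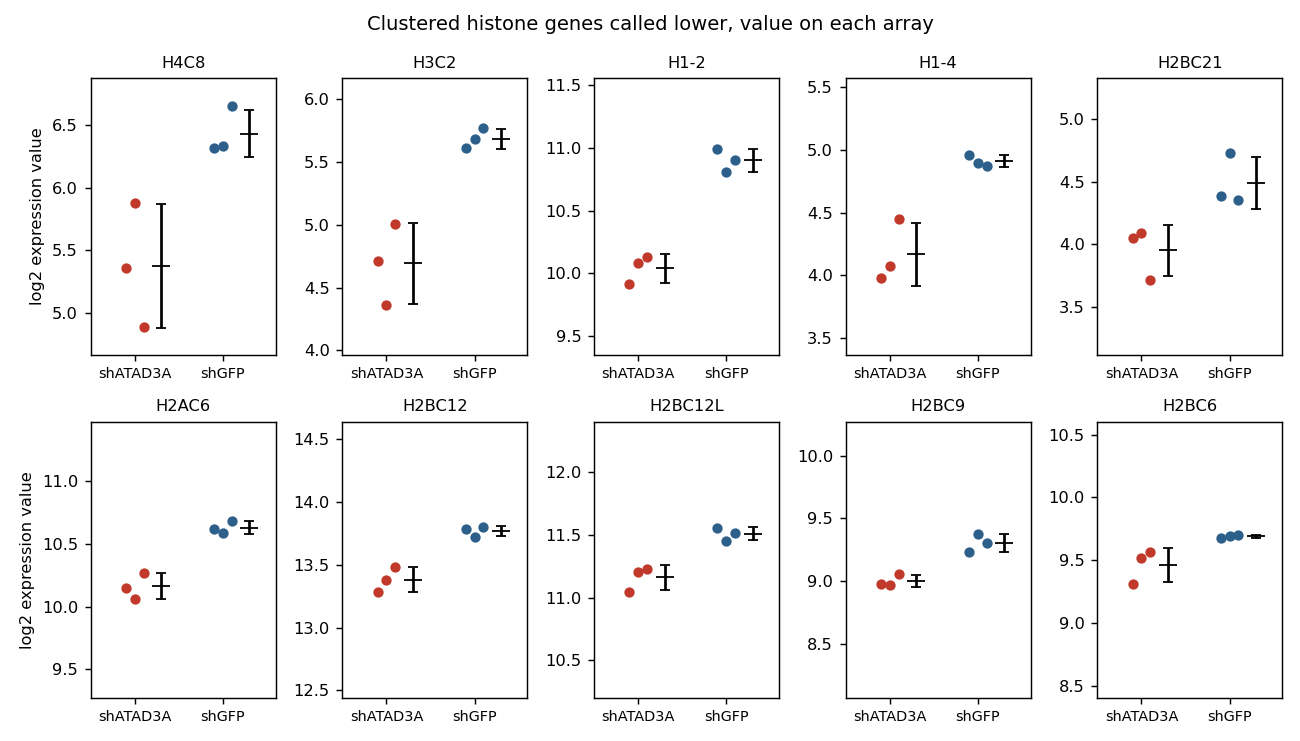
Log2 expression value of the 10 clustered histone genes called lower, on each of 3 shATAD3A arrays (red, left) and 3 shGFP arrays (blue, right), with the mean ± SD beside them; each panel spans the same range of log2 units. The shATAD3A points lie below the shGFP points in every panel, with the widest scatter for H4C8 and H3C2.

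Genes that neighbour the called members had small median changes. The median over the 25 nearest other genes on either side was -0.04 for H1-2, H2AC6, H3C2 and H4C8, -0.09 for H2BC12 and 0.0063 for H2BC21. With it removed, 9 clustered genes fell and 4 passed the test as higher, and the call of H2BC6 was lost (adjusted p = 0.0932). The 4, H2AC16, H2BC13, H3C11 and H4C13, named after their values were seen, all lay in the low mode with own changes of only -0.01 to 0.01, so that their calls come from subtracting a neighbour median of -0.12.

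Variant histone genes changed in both directions. Of the 11 variant genes 4 rose (H2AJ, H2AX, H1-10 and MACROH2A1), 1 fell (H2AZ2) and 6 were not called. Of all genes 19.7% rose and 13.9% fell. The MACROH2A1 call is that of its brightest probe set, and the probe sets of this gene differed in direction, as given below. All 5 called were among the 7 above the low mode, where 36.4% of all genes rose and 25.4% fell. H1-7, H1-8, H3-4 and MACROH2A2 lay in the low mode, with changes between -0.03 and 0.01, and were not called. The median change over the 11 was 0.01.

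H2AJ, an H2A variant linked to senescence and to luminal epithelium, had the largest rise. It read 11.33, 11.58 and 11.33 in shATAD3A cells, against 10.80, 10.69 and 10.58 in shGFP cells, a change of 0.72 ± 0.0887 (SE; limma adjusted p = 0.0012). The groups were well apart. A second bright probe set rose by 0.80 ± 0.0664 (SE; limma adjusted p = 0.000506 over all probe sets), while 2 others lay in the low mode and gave -0.13 and -0.02 (adjusted p = 0.762 and 0.927). Both bright ones are of the x_at type.

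H2AX, the variant phosphorylated at DNA double-strand breaks, read 11.85, 11.94 and 11.97 in shATAD3A cells, against 11.52, 11.44 and 11.49 in shGFP cells. All shATAD3A arrays were higher, and the change was 0.44 ± 0.0425 (SE; limma adjusted p = 0.000453). A dimmer probe set, at 7.06 in shATAD3A cells and 6.69 in shGFP cells, gave 0.37 ± 0.105 (SE; limma adjusted p = 0.0577), which missed the threshold. H1-10, the replication-independent linker histone H1x, read 8.91, 8.91 and 8.74 in shATAD3A cells, against 8.52, 8.48 and 8.44 in shGFP cells, a change of 0.37 ± 0.0556 (SE; limma adjusted p = 0.00281). It rose while the linker histone H1-2 fell.

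**Figure D3:**
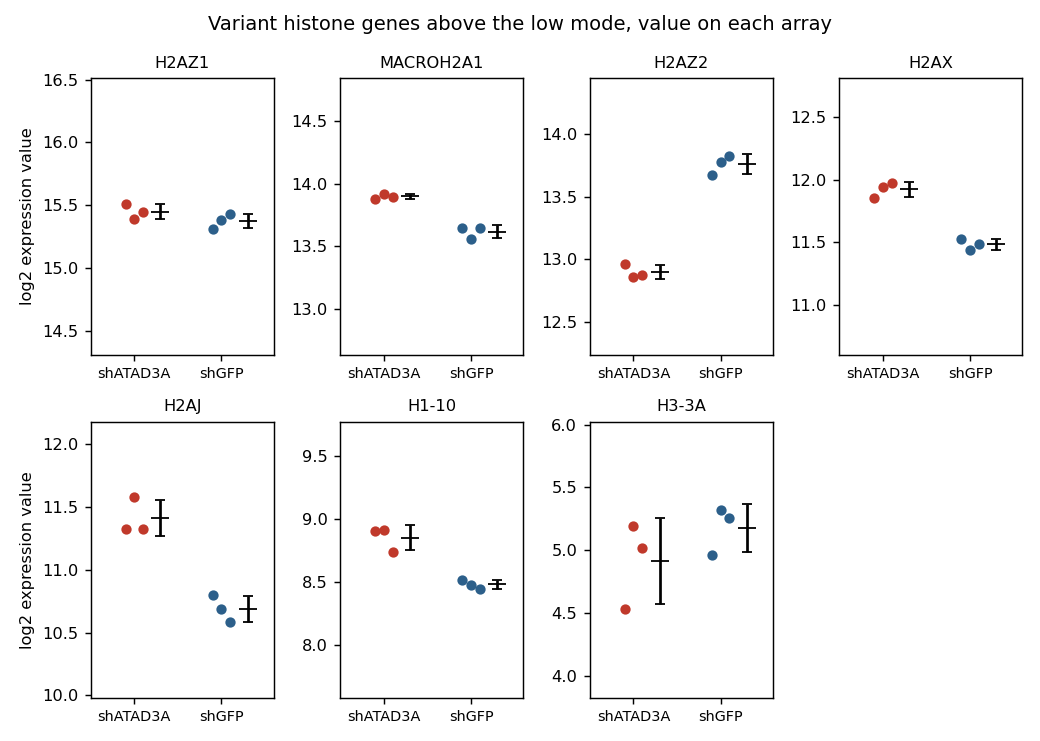
Log2 expression value of the 7 variant histone genes above the low mode, on each of 3 shATAD3A arrays (red, left) and 3 shGFP arrays (blue, right), with the mean ± SD beside them; each panel spans the same range of log2 units. H2AZ2 is lower in shATAD3A cells, MACROH2A1, H2AX, H2AJ and H1-10 are higher, and the groups overlap for H2AZ1 and H3-3A. Each gene is shown by its brightest single-symbol probe set. The probe sets of MACROH2A1 differ in direction.

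The H2A.Z genes parted. H2AZ1 and H2AZ2 encode the near-identical proteins H2A.Z.1 and H2A.Z.2, which mark nucleosomes at promoters. H2AZ2 read 12.96, 12.86 and 12.87 in shATAD3A cells, against 13.67, 13.78 and 13.83 in shGFP cells, a change of -0.86 ± 0.051 (SE; limma adjusted p = 6.21e-05). On the linear scale this is 45.0% lower. All 4 of its probe sets fell, by 0.86, 0.47, 0.92 and 0.34 on the log2 scale. H2AZ1 read 15.51, 15.39 and 15.45 in shATAD3A cells, against 15.31, 15.38 and 15.43 in shGFP cells, and the groups overlapped (change 0.08 ± 0.0456, SE; limma adjusted p = 0.322). The other H2AZ1 probe set rose by 0.19 ± 0.0336 (SE; limma adjusted p = 0.0108 over all probe sets). The difference between the changes of the H2A.Z genes was not tested.

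MACROH2A1 encodes macroH2A1, a variant with a large globular domain that is enriched on silent chromatin and is spliced into alternative forms. Its brightest probe set read 13.88, 13.92 and 13.90 in shATAD3A cells, against 13.65, 13.56 and 13.65 in shGFP cells, a change of 0.28 ± 0.0358 (SE; limma adjusted p = 0.0014). The direction differed between probe sets. A second one also rose by 0.28 (adjusted p = 0.00797), but another averaged 9.65 in shATAD3A cells and 10.2 in shGFP cells and fell by 0.54 on the log2 scale (limma adjusted p = 0.000166). The remaining bright ones gave -0.25 and -0.23 (adjusted p = 0.107 and 0.151). Averaged over its 7 probe sets MACROH2A1 changed by -0.06 (adjusted p = 0.216), so no direction holds for the gene as a whole. Which transcript form each probe set reads was not analysed here.

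H3-3A and H3-3B encode the same protein, H3.3, which is deposited outside replication by the HIRA and ATRX-DAXX pathways. The probe set given to H3-3A alone was dim and read 4.53, 5.19 and 5.02 in shATAD3A cells, against 4.96, 5.32 and 5.25 in shGFP cells, with overlapping groups (change -0.26 ± 0.186, SE; limma adjusted p = 0.412). Of 4 bright probe sets that carry the symbols H3-3A, H3-3B and the pseudogene H3P6, 1 fell, with -0.16 ± 0.0331 (SE; limma adjusted p = 0.0179), and the others gave -0.07, -0.06 and -0.02. Of 4 probe sets with the symbols H3-3A, H3-3B and MIR4738, 3 rose, by 0.45, 0.22 and 0.14 (adjusted p = 0.000598, 0.0139 and 0.0104). The remaining one, at 7.75 in shATAD3A cells and 8.27 in shGFP cells, fell by 0.52 on the log2 scale (adjusted p = 0.0025). Total H3.3 transcript therefore has no single direction in these probe sets.

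**Figure D4:**
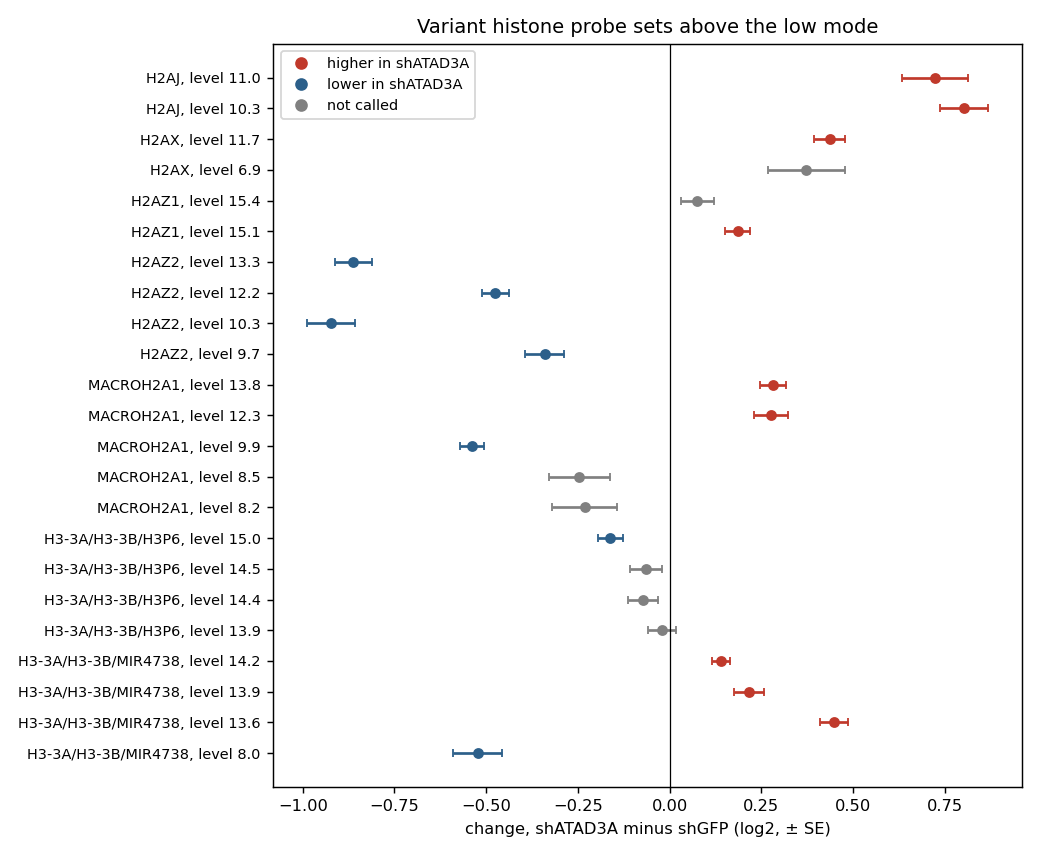
Change (shATAD3A minus shGFP, log2, bars are SE of the fit over all probe sets) of each probe set above the low mode for H2AJ, H2AX, H2AZ1, H2AZ2, MACROH2A1 and the shared symbols of H3-3A and H3-3B, with its mean log2 value over 6 arrays as "level"; red is called higher, blue called lower and grey not called. All 4 H2AZ2 probe sets lie below 0, those of MACROH2A1 lie on both sides, and so do those with the symbols of H3-3A, H3-3B and MIR4738.

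Histone genes outside these symbols were few: 3 of 14 listed were measured, and of these CENPA, the centromeric H3 variant, rose by 0.27 ± 0.0491 (SE; limma adjusted p = 0.00712). It read 9.24, 9.34 and 9.16 in shATAD3A cells, against 8.99, 8.98 and 8.97 in shGFP cells.

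Genes that make and process histone mRNA changed in both directions. Of 31 measured, all above the low mode, 11 rose and 10 fell, with a median change of -0.02. Among all genes above the low mode 36.4% rose and 25.4% fell, and the count of rises in the list is near that share. CSTF2, a cleavage factor that is also part of the histone pre-mRNA cleavage complex, averaged 8.05 ± 0.09 in shATAD3A cells and 9.06 ± 0.084 in shGFP cells (SD, n = 3 each), a change of -1.01 (limma adjusted p = 7.54e-05). ERI1, the exonuclease that trims the histone stem-loop, changed by -0.81 ± 0.0617 (SE; limma adjusted p = 0.000164), and TUT7, which adds uridines to RNA ends, by -0.64 ± 0.0734 (SE; limma adjusted p = 0.000898). NPAT, the coactivator of histone gene transcription driven by cyclin E and CDK2, read 9.55, 9.62 and 9.62 in shATAD3A cells, against 9.90, 9.77 and 9.78 in shGFP cells, a change of -0.22 ± 0.0468 (SE; limma adjusted p = 0.0135); it was chosen after its value was seen, as was SLBP. The stem-loop binding protein SLBP read 12.51, 12.46 and 12.54 in shATAD3A cells, against 12.52, 12.44 and 12.52 in shGFP cells, with overlapping groups (limma adjusted p = 0.932).

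Among those that rose were CCNE1 (cyclin E1), by 1.06 ± 0.124 (SE; limma adjusted p = 0.00101), and UPF1, a helicase used in histone mRNA decay, by 0.62 ± 0.0602 (SE; limma adjusted p = 0.00046). ZNF473, a zinc finger protein of U7-dependent histone pre-mRNA processing, rose by 1.20 ± 0.081 (SE; limma adjusted p = 0.000104), but a dimmer ZNF473 probe set gave -0.35 (adjusted p = 0.0228), so its direction is uncertain.

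Of 29 histone chaperone genes, all above the low mode, 7 rose, 3 fell and 19 were not called, with a median change of 0.03; both counts are below the 36.4% and 25.4% of genes above the low mode. ATRX, the remodeller that deposits H3.3 at repeats and telomeres with DAXX, read 10.11, 10.14 and 10.23 in shATAD3A cells, against 11.56, 11.50 and 11.57 in shGFP cells. The groups were far apart, and the change was -1.38 ± 0.0416 (SE; limma adjusted p = 5.88e-06). Its partner DAXX read 8.90, 8.84 and 8.75 in shATAD3A cells, against 9.34, 9.37 and 9.31 in shGFP cells, a change of -0.51 ± 0.046 (SE; limma adjusted p = 0.00033). The DAXX probe set is of the x_at type, whose probes may hybridise to related transcripts. DAXX was called lower in all 16 other settings that measured it, with changes between -0.55 and -0.23. DEK, a chromatin protein with H3.3 chaperone activity, changed by -0.83 ± 0.0589 (SE; limma adjusted p = 0.000122). On the other side OIP5, a centromere protein needed to load CENPA, rose by 0.67 ± 0.0517 (SE; limma adjusted p = 0.000173), and CHAF1A, a subunit of the replication-coupled chaperone CAF-1, by 0.63 ± 0.0673 (SE; limma adjusted p = 0.000674). All 3 bright CHAF1A probe sets rose, but they are of the s_at and x_at types, and the one left without those types lay in the low mode and gave 0.01 (adjusted p = 0.895). CDAN1, which binds the chaperone ASF1, rose by 0.53 ± 0.155 (SE; limma adjusted p = 0.0427), a call lost in 9 of 17 other settings, among them without shATAD3A replicate 1 or 3 (adjusted p = 0.124 and 0.134) and without shGFP replicate 1 or 2 (adjusted p = 0.117 and 0.0947).

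Genes of the complexes that exchange H2A.Z rose in 8 of 22 cases and fell in 2, with a median change of 0.07. Of the 22, 20 were above the low mode, where 36.4% of all genes rose and 25.4% fell, so the count of rises is near that share. The ATPases RUVBL2 and RUVBL1, shared by the SRCAP, TIP60 and INO80 complexes, rose by 0.52 ± 0.0414 (SE; limma adjusted p = 0.000196) and 0.50 ± 0.0409 (SE; limma adjusted p = 0.000222), and YEATS4 by 0.47 ± 0.0941 (SE; limma adjusted p = 0.0101). EP400 changed by -0.39 ± 0.0886 (SE; limma adjusted p = 0.0161), while a second EP400 probe set was higher by 0.63 (adjusted p = 0.0117), so its direction is uncertain; the call was also lost without shATAD3A replicate 2 (adjusted p = 0.0536) and without shGFP replicate 1 or 3 (adjusted p = 0.0578 and 0.0573). DMAP1 changed by -0.23 ± 0.0309 (SE; limma adjusted p = 0.00165). The count of genes higher was 5 without shATAD3A replicate 2, without shATAD3A replicate 3 or without shGFP replicate 2. The count lower was 4 without shATAD3A replicate 1, and 1 without shATAD3A replicate 2 or without shGFP replicate 3.

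Clustered histone mRNA is normally made together with the products of other S phase genes. Of 35 such genes measured, all above the low mode, 16 rose and 4 fell, with a median change of 0.17, where 36.4% of all genes above the low mode rose and 25.4% fell. POLE, the leading-strand DNA polymerase, rose by 1.05 ± 0.0903 (SE; limma adjusted p = 0.000277), the licensing factor CDT1 by 0.75 ± 0.057 (SE; limma adjusted p = 0.000168) and the primase PRIM1 by 0.68 ± 0.0613 (SE; limma adjusted p = 0.000336). GINS4 and GINS1 of the replicative helicase changed by -0.81 and -0.22, and the thymidylate synthase TYMS by -0.49. In bulk RNA, fewer cells with a transcript and less of it per cell cannot be told apart. For clustered genes, a lower polyadenylated share and less mRNA in all cannot be told apart either, because labelling starts from poly(A) tails. The part of cell cycle distribution in the histone changes was not tested.

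**Figure D5:**
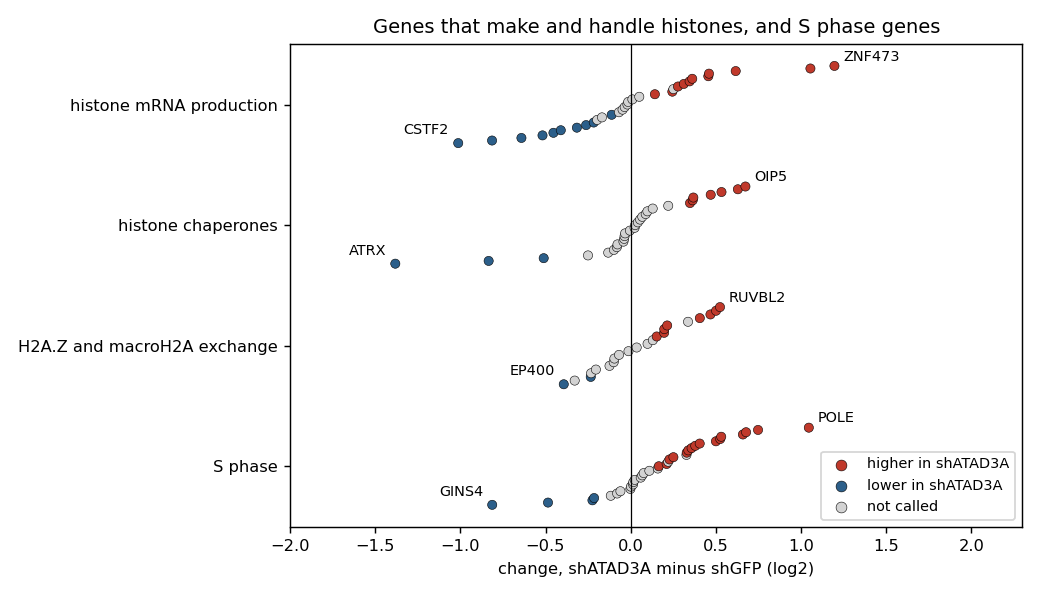
Change (shATAD3A minus shGFP, log2) of each measured gene of 4 lists, ordered by size within a list and spread vertically only for legibility; red is called higher, blue called lower and grey not called. Histone mRNA production genes spread from -1.01 to 1.20, ATRX is the lowest chaperone at -1.38, and S phase genes lie mostly above 0.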

How the data were processed

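RNA of MDA-MB-231 cells, 3 shATAD3A and 3 shGFP arrays, was labelled from 250 ng by 3' in vitro transcription, per the labels' protocols, and read on the Affymetrix U133 Plus 2.0 array. The authors deposited log2 values per probe set; the scale was read from the values (0.826 to 16.6), and background correction, normalization and summary method are not given in the sources used here. Per the submitters' processing notes the software was Partek (no version stated). The medians of the arrays were 3.16 to 3.23, and the number of arrays limits the precision.

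Of 54675 probe sets 62 controls were set aside, and 41091 had 1 symbol in the 2016 platform annotation, 1801 several and 11721 none. The GRCh38.p14 gene table changed 0 symbols when matched by Entrez ID, and 54 IDs were not in it. The brightest single-symbol probe set stood for a gene, with no filter on dim genes; the low mode boundary of 4.70, under which 48.2% of genes lay, was set after seeing the data. Groups were compared with limma 3.58.1 in R 4.3.3 (lmFit, eBayes, two-sided, no covariates, Benjamini-Hochberg), once over 19775 genes and once over 54613 probe sets, and the fit was tested on simulated data. There were 17 alternatives: normalization, filters, probe set choice, variance prior, array weights, threshold, replicate block, neighbour median and leaving out each array. Named were the called clustered genes, all variant genes above the low mode and up to 3 rises and 3 falls per list. At most 0.0165% of values were equal between any 2 arrays, so none was taken for a copy. Promoter sequences came from RefSeq (GRCh38.p14); 51 of the 54 genes had a window. The histone members and lists were chosen with earlier results of these data known.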

Additional observations from a re-analysis of the deposited data

How the results depend on the processing

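The number of clustered histone genes lower was 10 and lay between 7 and 11 in 16 of the 17 other settings; it was 4 without s_at and x_at probe sets, where fewer genes were measured. H1-2, H2BC12 and H2AZ2 were called lower in all 17 settings that measured them. H2BC6 also lost its call after median centring of the arrays (adjusted p = 0.112) and with the replicate block (adjusted p = 0.0584). Clustered genes higher numbered 4 with the neighbour median removed, a count set by the subtraction itself, and 0 otherwise.

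The median change of clustered genes was -0.26 without genes below the median of gene means (the stricter filter), which left 12 of the 43. It was -0.12 with the milder filter on dim genes, which left 26, and 0.017 with the neighbour median removed. Without s_at and x_at probe sets only 8 of the 11 variant genes were measured, with 1 higher and 2 lower. The 1 higher was H2AZ1 (0.19, adjusted p = 0.0083), which was not called in the main comparison. H2AX and the linker histone H1x, which were called higher there, were not measured without those probe sets. Variant genes lower numbered 2 with the neighbour median removed. Their median was 0.33 and 0.28 with the stricter and the milder filter on dim genes, which left 6 and 7 of the 11. It was -0.028 without s_at and x_at probe sets and -0.013 with array weights. When 1 array was left out it lay between -0.031 and 0.042. H2AJ read -0.024 (adjusted p = 0.919) without s_at and x_at probe sets, which left only a dim one; MACROH2A1 read -0.54 (adjusted p = 9.93e-05) in that setting and -0.061 with probe sets averaged, and EP400 0.059 with probe sets averaged. YEATS4 lost its call with the neighbour median removed (adjusted p = 0.0771).

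Without s_at and x_at probe sets, genes higher numbered 7 for histone mRNA production, 4 for chaperones, 3 for H2A.Z and macroH2A exchange and 0 outside the rule (2 with the neighbour median removed), and genes lower 1 for exchange. CENPA, the gene outside the rule that rose, was not measured without those probe sets. How many list genes remained measured there was not counted. Chaperones lower numbered 7 with probe sets averaged and 5 with array weights. Exchange genes higher numbered 4 at an adjusted p of 0.01 and 5 with the replicate block, and between 5 and 8 with 1 array left out; exchange genes lower numbered 4 after quantile normalization, without genes below the median of gene means and with array weights, 1 at an adjusted p of 0.01, and between 1 and 4 with 1 array left out. S phase genes lower numbered 1 at that threshold. The cause of these differences was not tested.

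Same-numbered arrays of the groups had correlations of -0.24, -0.16 and 0.047 between their deviations from the group means, so the numbers were not taken to pair them; with the replicate block 6057 genes changed, against 6644 without. Under the replicate block exchange genes higher numbered 5, against 8 without. The remaining counts moved by at most 1.5 times.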
